A study of Mus musculus with 2 samples.

Results

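The 8 Hedgehog genes described here were the ligands Ihh and Shh, the receptor Ptch1, the transducer Smo, the transcription factors Gli1, Gli2 and Gli3, and the ligand-binding inhibitor Hhip. They were taken by name from the deposited tables of 2 single-cell RNA-seq libraries of mouse colon, ligands to be read across epithelial cells and the other genes across stromal cells. All 8 were among the 17809 genes of the wild-type table, and 7 were among the 15972 genes of the reporter table, in which Shh is not listed. The wild-type library held epithelial cells (EpCAM+ CD45-) and stromal cells (EpCAM- CD45-) of C57BL/6 colon, mixed 1:1 after sorting. The reporter library held GFP-positive mesenchymal cells sorted from the colon of Pdgfra-H2B-eGFP mice, which carry a nuclear GFP under the control of the Pdgfra locus, although 51 epithelial-like and 114 immune-like cells were also found in it. Each library pooled cells of 3 female mice aged 8 to 12 weeks that received no treatment, with no map from cells to mice. Each condition is therefore 1 sample, no test between conditions or cell classes was possible, and the values below are descriptions of these libraries.

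Hedgehog ligands are secreted proteins that bind Patched on the receiving cell, which lifts the block that Patched places on Smoothened and lets Gli factors switch on target genes. In the gut the ligands come mainly from the epithelium and the receiving cells are mainly in the mesenchyme. Ptch1, Gli1 and Hhip are themselves targets of the pathway in many tissues, so their mRNA is often read as a sign of a Hedgehog response.

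Values are UMI counts that the authors had corrected to a common depth, called corrected counts here. The wild-type table held 7495 cells with 6120 to 16389 corrected counts each (median 8972) and a median of 2804 genes per cell. The reporter table held 4409 cells with 2314 to 4432 corrected counts (median 3150) and a median of 1381 genes. Both tables shared 1 cell barcode. Cells were clustered without the Hedgehog genes, and classes were named from marker lists. CTFs-like cells carried markers of the study's crypt top fibroblasts (high Pdgfra, Wnt5a, Bmp3), and CBFs-like cells those of its crypt bottom fibroblasts (Cd34, Wnt2, Grem1), with CBFs2-like the Pi16 and Cd81 type. Epcam averaged 25 corrected counts in epithelial and 0.58 in CBFs-like wild-type cells, and Col1a1 averaged 0.185 and 21.0. Doublets were kept. Scrublet, run on corrected counts rather than raw UMI counts, marked only 7 of 7495 and 5 of 4409 cells. These calls are not a reliable measure of doublets, and 16000 cells were loaded for each library. Some doublets may therefore remain in the classes. A share of cells above 0 is given with its exact (Clopper-Pearson) 95% binomial interval, which covers counting error only. Because the counts were corrected, a cell above 0 may not have held a molecule of the gene.

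The bases before the annotated starts of Ihh, Ptch1 and Hhip are shown because these 3 genes had the widest differences between classes. They come from RefSeq (GRCm38.p6), where 6 of the 8 genes were matched and Shh and Gli1 were not. Each line gives 250 bases read 5′ to 3′ on the gene's own strand, with every CG dinucleotide in capitals.
Ihh, chr1:74951673-74951922, minus strand: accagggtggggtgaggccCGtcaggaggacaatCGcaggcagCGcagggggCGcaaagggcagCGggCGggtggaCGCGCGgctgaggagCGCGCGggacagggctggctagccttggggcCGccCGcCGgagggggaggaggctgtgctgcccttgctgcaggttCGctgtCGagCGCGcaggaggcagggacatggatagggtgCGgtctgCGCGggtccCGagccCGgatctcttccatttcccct
Ptch1, chr13:63565736-63565985, minus strand: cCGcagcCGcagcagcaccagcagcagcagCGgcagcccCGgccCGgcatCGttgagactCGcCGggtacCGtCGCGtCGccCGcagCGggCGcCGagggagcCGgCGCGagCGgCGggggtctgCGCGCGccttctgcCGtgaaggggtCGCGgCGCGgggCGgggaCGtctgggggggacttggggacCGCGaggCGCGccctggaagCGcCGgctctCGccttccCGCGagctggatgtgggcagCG
Hhip, chr8:80058009-80058258, minus strand: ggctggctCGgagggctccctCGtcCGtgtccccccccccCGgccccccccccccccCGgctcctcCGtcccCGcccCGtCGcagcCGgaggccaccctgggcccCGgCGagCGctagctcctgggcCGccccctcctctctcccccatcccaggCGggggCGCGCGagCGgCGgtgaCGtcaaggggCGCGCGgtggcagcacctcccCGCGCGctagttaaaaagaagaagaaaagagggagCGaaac
The Ptch1 window held 41 CG dinucleotides, the Hhip window 28 and the Ihh window 24, against a median of 6 over 32851 RefSeq promoter windows of the same length. Gli3 had 34, Gli2 22 and Smo 15, so all 6 matched genes lay above that median. The letters GACCACCCA, the usual GLI recognition sequence, or their reverse complement were in none of the 6 windows and in 0.225% of all windows. The shorter GACCACC, which is part of it, was in none of the 6 and in 2.34% of all. The windows of Ptch1 and Gli3 lie inside the longer GENCODE genes (chromosome 13, 63508328 to 63573598 and 15463235 to 15730026), so other starts of these genes were not searched.

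Ihh, on chromosome 1 from 74945315 to 74951672 (GRCm38), was the ligand read in epithelial cells. Enteroendocrine-like cells averaged 2.02 corrected counts, with 60 of 86 cells above 0 (69.8%, 58.9 to 79.2). Goblet-like cells averaged 1.25, with 413 of 638 cells above 0 (64.7%, 60.9 to 68.4). The intervals of these secretory classes overlapped, and both lay clear of the remaining epithelium. Transit-amplifying-like cells averaged 0.428 (32.6% of 705 cells, 29.2 to 36.2), an unnamed epithelial class led by Krt36 averaged 0.439 (31.1% of 383 cells, 26.5 to 36.0), and enterocyte-like cells averaged 0.394 (30.7% of 667 cells, 27.2 to 34.4). These last 3 classes could not be ordered, since their intervals overlapped. Goblet-like cells were 8.51% of the library and held 41.6% of its 1915 Ihh counts, and enteroendocrine-like cells were 1.15% of the library and held 9.09%.

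The Ihh level also varied between the cells of a class. Enteroendocrine-like cells had a median of 1 corrected count, a 75th percentile of 3 and a maximum of 10, and goblet-like cells a median of 1, a 75th percentile of 2 and a maximum of 9. Enterocyte-like cells had a median of 0 and a maximum of 5. The enterocyte-like class joined 2 clusters, of which the one led by Cyp2c55 averaged 0.442 (34.4% of 459 cells, 30.1 to 39.0) and the one led by Atp12a and Saa1 averaged 0.289 (22.6% of 208 cells, 17.1 to 28.9). Their intervals did not overlap. At a clustering resolution of 0.8 the transit-amplifying-like class parted into a stem-like cluster, led by Nr2e3 and Lgr5 among others, and 227 dividing cells. The stem-like cluster had 479 cells, 478 from this class and 1 from an enterocyte-like cluster. Ihh averaged 0.455 in the stem-like cluster (33.6%, 29.4 to 38.0) and 0.370 in the dividing cells (30.4%, 24.5 to 36.8), with overlapping intervals.

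Outside the epithelium Ihh was rare. It was seen in 18 of 1701 CBFs-like cells (1.06%), 7 of 818 CTFs-like cells (0.856%) and 7 of 943 smooth muscle-like cells (0.742%). The median cell of these classes had 2691, 2433 and 2624 genes, and that of the epithelium 3221. Epcam itself, which fibroblasts should lack, was above 0 in 33.6% of CBFs-like cells. The mean of Ihh over the mean of Epcam was 0.0275 in epithelial and 0.0213 in CBFs-like cells. The 18 CBFs-like cells with Ihh averaged 4.44 Epcam counts, against 0.538 in the 1683 without, so Ihh in this class moved with an epithelial marker. In the reporter library 8 of 51 epithelial-like cells and 1 of 3490 CBFs-like cells held Ihh, and it was in 0 of 524 CTFs-like cells, which allows a share of up to 0.573%.

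Shh, on chromosome 5 from 28456815 to 28467256, was far sparser in the data, with 74 corrected counts in 73 cells (0.974% of the library). Of these counts 93.2% lay in epithelial cells, which were 33.1% of the library. It was above 0 in 34 of 638 goblet-like cells (5.33%, 3.72 to 7.37), 25 of 705 transit-amplifying-like cells (3.55%, 2.31 to 5.19) and 3 of 86 enteroendocrine-like cells (3.49%, 0.725 to 9.86), 3 classes whose intervals overlapped. Only 5 of 667 enterocyte-like cells (0.750%, 0.244 to 1.74) and 2 of 383 cells of the Krt36-led class (0.522%, 0.063 to 1.87) held it. Among stromal cells it was seen in 1 of 1701 CBFs-like cells and in 0 of 818 CTFs-like cells, which allows up to 0.367%, and 0 of 943 smooth muscle-like cells, which allows up to 0.318%.

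**Figure D1:**
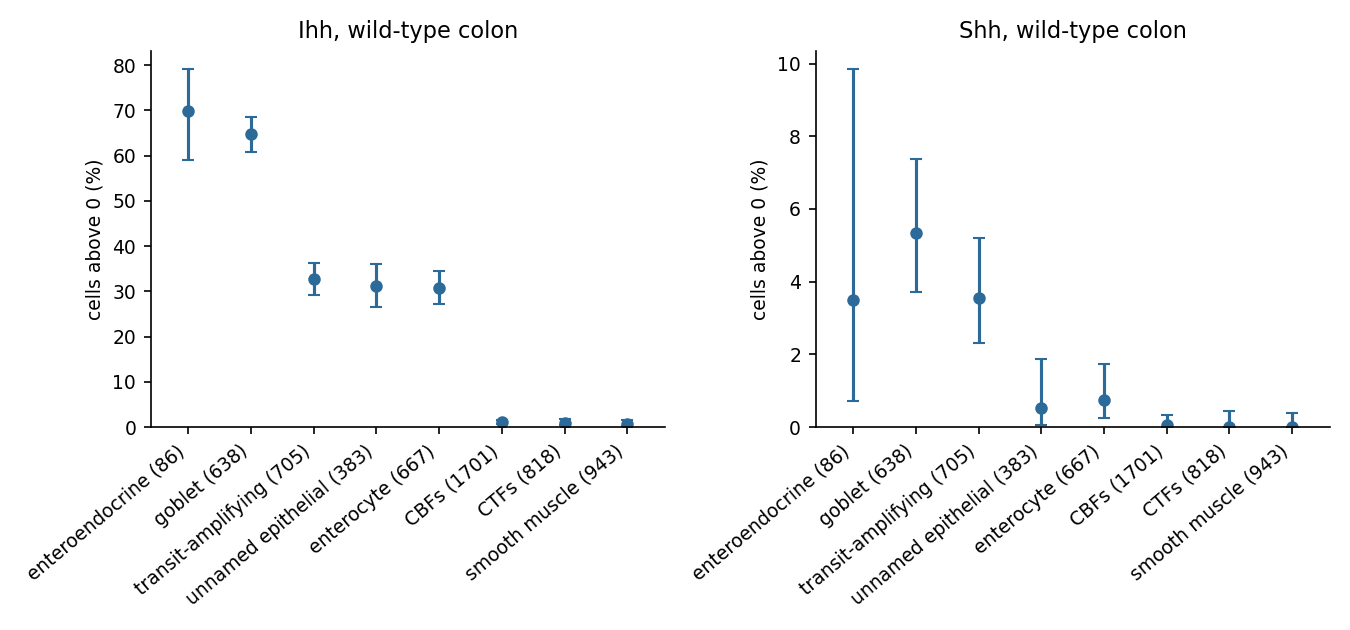
Percent of cells above 0 for Ihh (left) and Shh (right) in classes of the wild-type library, with the number of cells in brackets; points are shares and bars the exact 95% binomial interval. Ihh sits at 69.8% and 64.7% in the secretory classes, near 31% to 33% in the other epithelial classes and near 1% in stroma, while Shh reaches 5.33% in goblet-like cells.

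The goblet-like class held the clearest difference between the ligands. At a resolution of 0.8 its 638 cells parted into a cluster of 329 with high Muc2 (mean 362, Reg4 4.63) and a cluster of 309 with high Reg4, the mark of deep crypt secretory cells (mean 41.0, Muc2 64.9). Shh was above 0 in 30 of 329 cells of the Muc2-high cluster (9.12%, 6.24 to 12.8) and in 4 of 309 cells of the Reg4-high cluster (1.29%, 0.354 to 3.28). The intervals did not overlap, and the median cells had 3393 and 3156 genes. Ihh was in 66.3% (60.9 to 71.4) and 63.1% (57.5 to 68.5) of the same cells, with means of 1.18 and 1.32. So Shh differed between these goblet-like clusters and Ihh was not seen to. The 34 goblet-like cells with Shh averaged 376 Muc2 and 8.09 Reg4 counts, against 209 and 23.1 in the 604 without. Shh was in 26 of 413 goblet-like cells with Ihh (6.30%, 4.15 to 9.09) and in 8 of 225 without (3.56%, 1.55 to 6.89). A further goblet-like cluster at that resolution, of 116 cells with a median of 1708 genes, lay outside the goblet-like class, in the unnamed cluster led by haemoglobin genes, and had Shh in 2 cells and Ihh in 31.0% (22.8 to 40.3). Among crypt base cells at that resolution Shh was in 21 of 479 stem-like cells (4.38%, 2.73 to 6.62) and 4 of 227 dividing cells (1.76%, 0.482 to 4.45), with overlapping intervals.

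**Figure D2:**
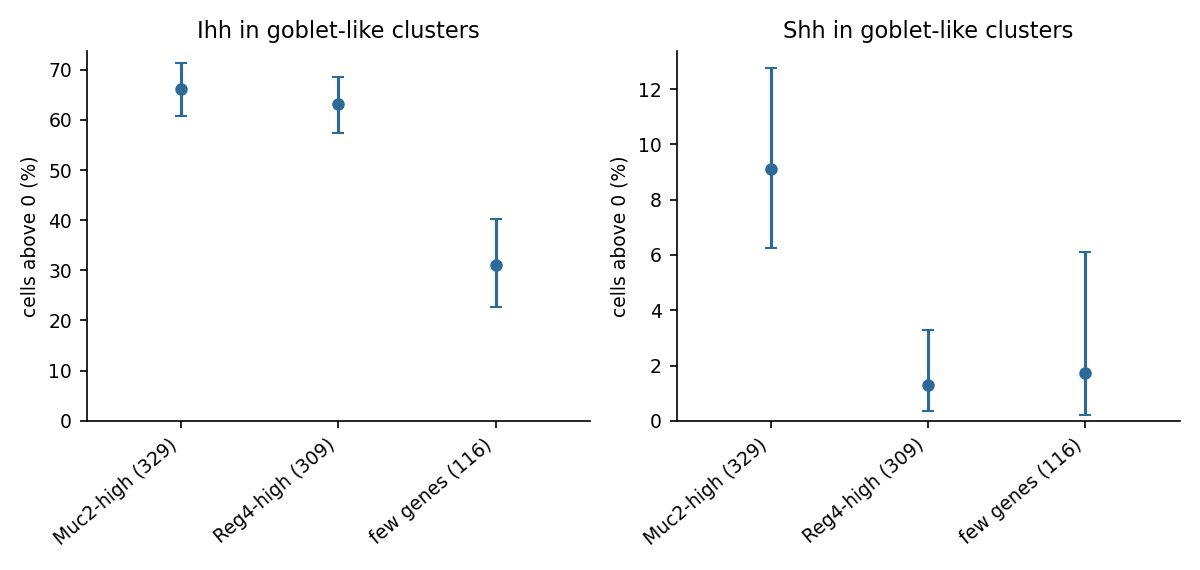
Percent of cells above 0 for Ihh (left) and Shh (right) in the 3 goblet-like clusters found at a resolution of 0.8, with the number of cells in brackets and exact 95% binomial intervals. Ihh is alike in the Muc2-high and Reg4-high clusters (66.3% and 63.1%), whereas Shh is at 9.12% in the first and 1.29% in the second.

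Set against all genes, the ligand contrasts were part of wide differences between the epithelial classes. Between enteroendocrine-like and enterocyte-like cells 4 of the 8 genes had the 20 corrected counts needed to be read, and 3 of them (Ihh, Ptch1 and Smo) were at least 2-fold higher in enteroendocrine-like cells, where 34.6% of all genes read were (50.1% passed 2-fold in one direction or the other). The log2 ratio of means for Ihh was 2.33 (pseudocount 0.01). Between goblet-like and enterocyte-like cells 5 were read and 4 (Ihh, Shh, Smo and Hhip) were at least 2-fold higher in goblet-like cells, against 20.7% of all genes, with log2 ratios of 1.64 for Ihh and 1.85 for Shh. The Hhip counts there came from 13 goblet-like and 6 enterocyte-like cells. Epithelial Hhip moved with the smooth muscle gene Acta2, as given below, and the part of this in the ratio was not tested. Shh had 34 goblet-like counts against 5, and Smo 67 against 12, so their enterocyte-like counts alone were below the 20 needed. They were read only with counts of the higher class, so 4 of 5 is not taken as a goblet-like Hedgehog set. The same limit holds for Smo in enteroendocrine-like cells (20 counts against 12). Against transit-amplifying-like cells Ihh had a log2 ratio of 1.52 and Shh of 0.48 in goblet-like cells, Hhip 1.02 and Smo -1.01. The background there was 11.9% higher and 14.9% lower.

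Ptch1, the Hedgehog receptor, was read in every stromal class. In the wild-type library it averaged 3.56 corrected counts in CTFs-like cells (662 of 818 cells above 0, 80.9%, 78.1 to 83.6) and 3.24 in smooth muscle-like cells (767 of 943, 81.3%, 78.7 to 83.8). CBFs1-like cells averaged 1.40 (59.5% of 1137 cells, 56.5 to 62.3) and CBFs2-like cells 0.686 (36.7% of 564 cells, 32.7 to 40.8). Pericyte-like cells averaged 0.492 (27.1% of 118 cells, 19.4 to 36.1), glia-like cells 0.397 (24.4% of 78 cells, 15.4 to 35.4) and blood endothelial-like cells 0.228 (10.8% of 593 cells, 8.41 to 13.6). CTFs-like and smooth muscle-like cells could not be ordered by share, CBFs1-like cells followed with an interval of their own, the intervals of CBFs2-like, pericyte-like and glia-like cells overlapped, and blood endothelial-like cells lay below all of these. Together CTFs-like and smooth muscle-like cells were 10.9% and 12.6% of the library and held 33.4% and 35.1% of its 8717 Ptch1 counts. Interstitial cells of Cajal-like cells numbered only 20, of which 14 held Ptch1 (70.0%, 45.7 to 88.1). The 119 lymphatic endothelial-like cells had 18.5% (12 to 26.6), in a cluster that averaged 11.2 Col1a1 counts. At a resolution of 0.8, 74 of them fell into an unnamed fibroblast cluster. The other 45 formed a lymphatic endothelial-like cluster with a mean Col1a1 of 1.33. The share of 18.5% is therefore not that of lymphatic cells alone.

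Ptch1 per cell spread widely within each class. The quartiles were 1, 3 and 5 corrected counts in both CTFs-like and smooth muscle-like cells, with a maximum of 21 in each, and 0, 1 and 2 in CBFs1-like cells. In CBFs2-like cells the median was 0 and the 75th percentile 1. The smooth muscle-like class joined a cluster of 884 cells, with Ptch1 in 85.1% (82.6 to 87.4), and one of 59 cells with a median of 1697 genes, with Ptch1 in 25.4% (15 to 38.4).

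At a resolution of 0.8 most of the CTFs-like cells fell into 2 clusters. The one led by Cybrd1 and Sox6 (604 cells, mean Acta2 13.9) averaged 3.28 Ptch1 counts with 80.0% of cells above 0 (76.6 to 83.1), and the one led by Lpar3 and Il1rl1 (183 cells, mean Acta2 1.65) averaged 4.83 with 91.3% (86.2 to 94.9). The intervals did not overlap, at medians of 2312 and 2953 genes per cell. In the reporter library a CTFs-like cluster with Il1rl1 and Lpar3 also among its 5 leading genes (119 cells) had Ptch1 in 53.8% (44.4 to 63.0), against 35.4% (31.3 to 39.7) of the 522 other CTFs-like cells, at 1814 and 1445 genes. Of these 119 cells, 114 lay in the unnamed fibroblast cluster of the main clustering and 4 in its CTFs-like cluster. The difference in genes per cell ran the same way in both libraries, and its part in the result was not tested.

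Epithelial cells held little Ptch1, with 184 of 2479 cells above 0 (7.42%, 6.42 to 8.53). Col1a1 was above 0 in 26.6% of those 184 cells and in 2.83% of the other epithelial cells, so stromal RNA moved with Ptch1 there. Enteroendocrine-like cells stood apart, with Ptch1 in 24 of 86 cells (27.9%, 18.8 to 38.6) against 4.35% (2.93 to 6.18) of enterocyte-like cells. Among them Col1a1 was in 12.5% of cells with Ptch1 and 12.9% of cells without, and Acta2 was in the same shares, although its mean was 1.71 and 0.194. Their median of 3719 genes per cell was above the 2940 of enterocyte-like cells.

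Smo, the membrane protein that Patched holds in check, on chromosome 6 from 29735503 to 29761365, was the most evenly spread of the receiving genes across the main stromal classes. CBFs1-like cells averaged 0.499 (38.0%, 35.2 to 40.9), CTFs-like cells 0.456 (30.7%, 27.5 to 34.0), smooth muscle-like cells 0.379 (28.2%, 25.4 to 31.2) and CBFs2-like cells 0.355 (28.0%, 24.3 to 31.9). CBFs1-like cells had the highest share, and the other 3 classes could not be ordered. Pericyte-like cells had 12.7% (7.29 to 20.1). In the epithelium Smo was in 20.4% (17.5 to 23.6) of transit-amplifying-like and 22.1% (13.9 to 32.3) of enteroendocrine-like cells, in 9.87% (7.67 to 12.5) of goblet-like cells and in 1.80% (0.933 to 3.12) of enterocyte-like cells. The 2 enterocyte-like clusters had 12 of 459 and 0 of 208 cells with Smo, the latter of which allows a share of up to 1.44%. Blood endothelial-like cells, with fewer genes (median 2051), had 4.89% (3.30 to 6.95).

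Gli1, the factor whose mRNA is a direct readout of the pathway, lies on chromosome 10 from 127329882 to 127341974. It averaged 0.335 in smooth muscle-like cells (250 of 943, 26.5%, 23.7 to 29.5), 0.30 in CBFs2-like cells (124 of 564, 22.0%, 18.6 to 25.6), 0.212 in CBFs1-like cells (200 of 1137, 17.6%, 15.4 to 19.9) and 0.197 in CTFs-like cells (130 of 818, 15.9%, 13.5 to 18.6). Pericyte-like cells averaged 0.254 (22 of 118, 18.6%, 12.1 to 26.9). The share in smooth muscle-like cells lay clear of both CTFs-like and CBFs1-like cells, while neighbours in the order overlapped. The intervals of CTFs-like and CBFs1-like cells overlapped. In epithelial cells, which served as the background, Gli1 was in 25 of 2479 cells (1.01%, 0.654 to 1.49) at a greater depth.

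Gli2, usually the main activator among the Gli factors (chromosome 1, 118834132 to 119053619), was in 15.1% (12.2 to 18.3) of CBFs2-like cells, 14.8% (12.8 to 17) of CBFs1-like cells, 13.4% (11.3 to 15.7) of smooth muscle-like cells and 10.4% (8.39 to 12.7) of CTFs-like cells. Only the intervals of CTFs-like and CBFs1-like cells were apart. It was in 1 of 118 pericyte-like cells (0.847%, 0.021 to 4.63), although Gli1 was in 22 of them, and in 0.645% (0.369 to 1.05) of epithelial cells.

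Gli3, mostly known as the pathway's repressor (chromosome 13, 15463235 to 15730026), was highest in CBFs2-like cells, with a mean of 0.358 and 161 of 564 cells above 0 (28.5%, 24.9 to 32.5). CBFs1-like cells had 17.6% (15.4 to 19.9), smooth muscle-like cells 15.5% (13.2 to 18.0) and CTFs-like cells 14.5% (12.2 to 17.1), all below the CBFs2-like interval and overlapping each other. Pericyte-like cells had 8.47% (4.14 to 15) and epithelial cells 0.847% (0.525 to 1.29). Each of the 3 Gli genes was seen in 0 of 86 enteroendocrine-like cells, which allows a share of up to 3.49%, a limit above their shares in all epithelial cells.

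**Figure D3:**
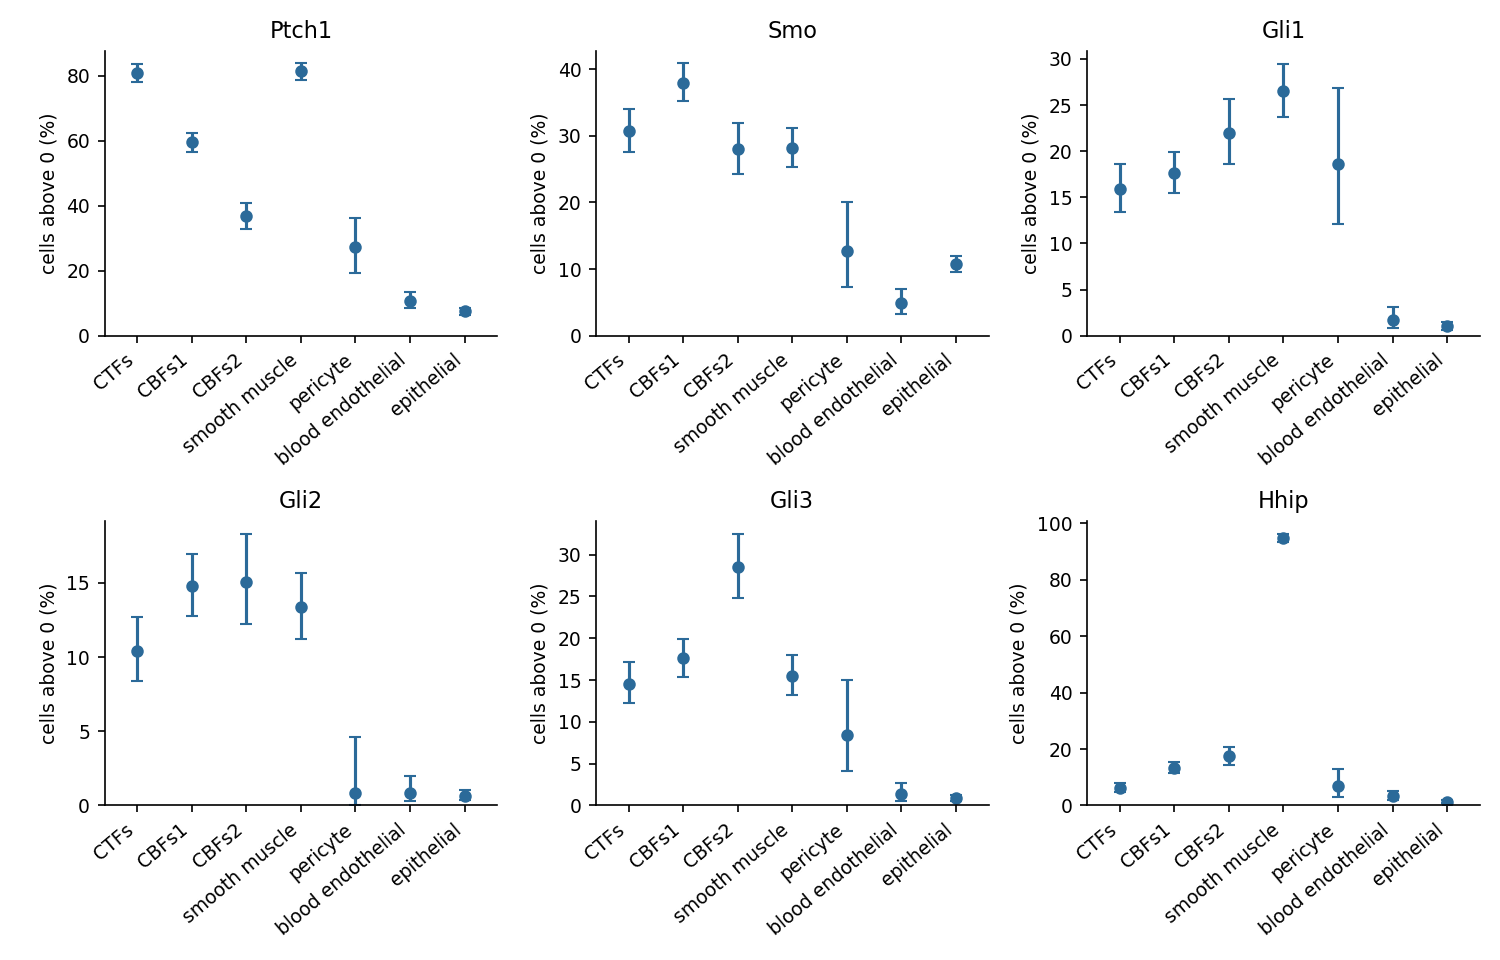
Percent of wild-type cells above 0 for the receptor Ptch1, the transducer Smo, Gli1, Gli2, Gli3 and the inhibitor Hhip in 6 stromal classes and in all epithelial cells; bars are exact 95% binomial intervals and each panel has its own scale. Ptch1 is highest in CTFs-like and smooth muscle-like cells, Gli3 in CBFs2-like cells and Hhip in smooth muscle-like cells (94.8%).

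Hhip encodes a membrane protein that binds Hedgehog ligands and keeps them from Patched, and lies on chromosome 8 from 79965851 to 80058006. It averaged 18.4 corrected counts in smooth muscle-like cells, where 894 of 943 cells were above 0 (94.8%, 93.2 to 96.1). These cells were 12.6% of the library and held 91.3% of its 19061 Hhip counts. The quartiles were 8, 16 and 26 per cell and the maximum was 80. The smaller smooth muscle-like cluster of 59 cells averaged 5.98 (71.2%, 57.9 to 82.2) and the larger 19.3 (96.4%, 94.9 to 97.5). In other stromal classes means were low, at 0.546 in CBFs2-like cells (17.4%, 14.3 to 20.8), 0.257 in CBFs1-like cells (13.4%, 11.4 to 15.5) and 0.0844 in CTFs-like cells (6.23%, 4.68 to 8.12). The intervals of the CBFs1-like and CBFs2-like shares overlapped, and that of CTFs-like cells lay below both. Pericyte-like cells, although they express Acta2 (mean 28.3), had Hhip in only 8 of 118 cells (6.78%, 2.97 to 12.9). CTFs-like cells averaged 10.8 Acta2 counts, so the low Hhip of both classes did not follow Acta2.

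Hhip in the other classes was set beside the smooth muscle gene Acta2. The mean of Hhip over that of Acta2 was 0.176 in smooth muscle-like, 0.289 in CBFs1-like, 0.931 in CBFs2-like and 0.00779 in CTFs-like cells. The part of free RNA in these values was not tested. The 98 CBFs2-like cells with Hhip averaged 0.980 Acta2 counts and the 466 without averaged 0.504, with Acta2 above 0 in 26.5% and 30.3% of them. In the epithelium Hhip was in only 32 of 2479 cells (1.29%, 0.885 to 1.82), with a mean of 6.69 in those cells. Acta2 was above 0 in 84.4% of these 32 and in 2.49% of the other epithelial cells, with means of 24.8 and 0.0801, so Hhip there moved with a smooth muscle gene. An unnamed cluster of 101 cells with pericyte and endothelial markers averaged 5.31 Hhip counts (31.7%, 22.8 to 41.7). It was led by Notch3, Ndufa4l2, Heyl, Gal and Rgs5 and averaged 22.5 Acta2 counts, at a median of 3849 genes. The low Hhip of the pericyte-like class is therefore not that of all cells with pericyte markers.

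**Figure D4:**
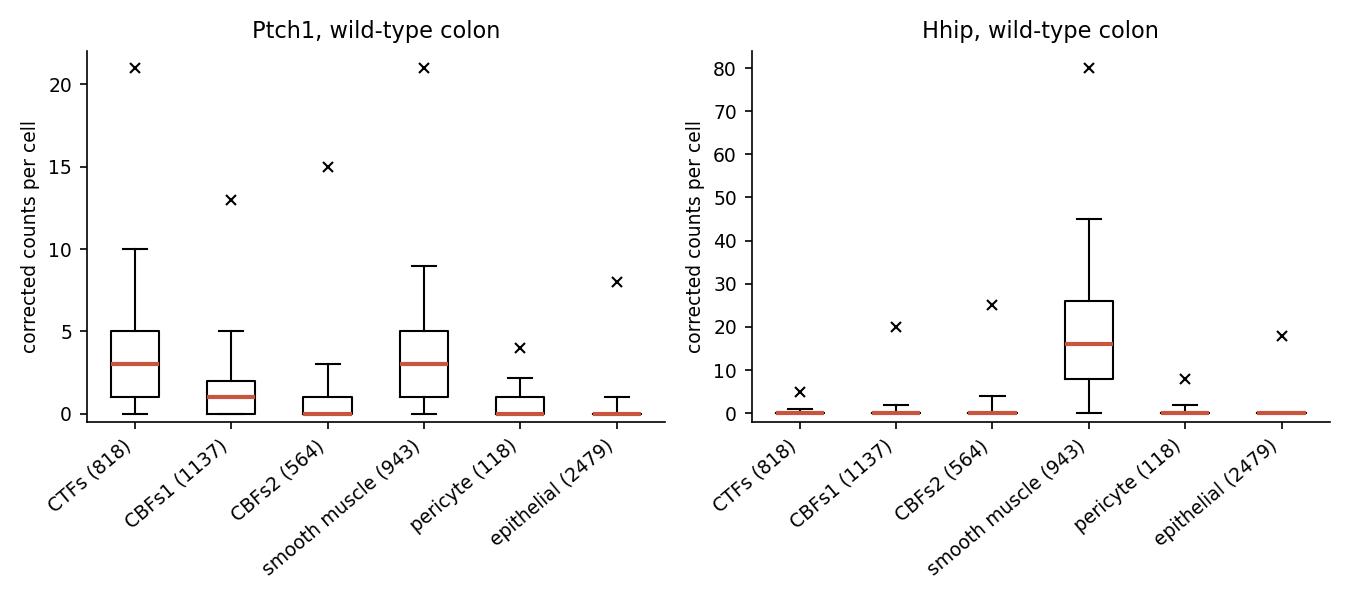
Corrected counts per cell of Ptch1 (left) and Hhip (right) in wild-type classes; boxes give the quartiles with the median in red, whiskers run from 0, the lowest value in every class, to the 95th percentile, and the cross is the highest cell. The Ptch1 boxes of CTFs-like and smooth muscle-like cells are the same (1, 3 and 5), whereas the Hhip box of smooth muscle-like cells (8, 16 and 26) stands alone.

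The comparison of crypt top with crypt bottom fibroblasts, the contrast the study draws in the mesenchyme, split the receiving genes. In the wild-type library 7 of the 8 genes had 20 corrected counts over both classes, and 1 (Ptch1) was at least 2-fold higher and 1 (Hhip) at least 2-fold lower in CTFs-like cells, where 5.03% of all genes read were higher and 8.28% lower. The means of Ptch1 were 3.56 and 1.17, a 3.05-fold difference with a log2 ratio of 1.60. Hhip averaged 0.0844 and 0.353, a log2 ratio of -1.94. The others lay within 2-fold, with log2 ratios of -0.18 for Ihh, 0.02 for Smo, -0.28 for Gli1, -0.52 for Gli2 and -0.57 for Gli3.

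In the reporter library the same contrast could be read for 6 genes, and 0 were at least 2-fold higher and 1 (Hhip) at least 2-fold lower in CTFs-like cells, against 4.51% and 6.42% of all genes. This background depends on the scale, since with corrected counts per 10000 the genes past 2-fold numbered 941 higher and 1530 lower, against 556 and 791. Ptch1 averaged 0.485 in CTFs-like cells (186 of 524, 35.5%, 31.4 to 39.8) and 0.311 in all CBFs-like cells (815 of 3490, 23.4%, 22.0 to 24.8), a log2 ratio of 0.62 with separate intervals. The log2 ratios were 0.33 for Smo, 0.02 for Gli1, -0.58 for Gli2, -0.36 for Gli3 and -1.58 for Hhip. The Hhip mean in reporter CTFs-like cells came from 1 cell that held 8 counts, while 148 of 3490 CBFs-like cells (4.24%, 3.6 to 4.96) held it, so its share was 0.191% (0.005 to 1.06) against 4.24%. The ratio was above 0 in both libraries for Ptch1 and below 0 in both for Gli2, Gli3 and Hhip. For Smo it was 0.02 in the wild-type library, and for Gli1 0.02 in the reporter library. Both values are too near 0 for a sign to be read. With cells of both libraries thinned to 2000 corrected counts, Ptch1 was in 47.7% of wild-type CTFs-like and 20.6% of CBFs-like cells, and in 24.8% and 15.7% in the reporter library. The libraries used different kits and were normalised separately, so their levels are not compared.

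**Figure D5:**
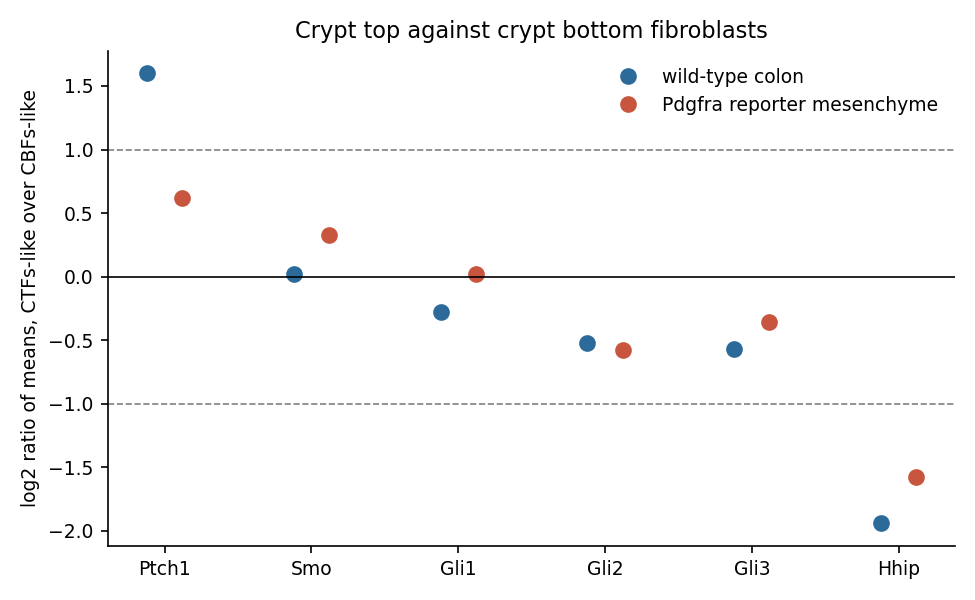
Log2 ratio of mean corrected counts in CTFs-like over CBFs-like cells for each receiving gene in the wild-type (blue) and reporter (red) libraries, with dashed lines at 2-fold. Ptch1 is above 0 in both (1.60 and 0.62), Hhip is past the lower line in both (-1.94 and -1.58), and Smo and the Gli genes lie between the lines.

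Within crypt bottom fibroblasts, CBFs2-like cells had less Ptch1 and a higher Hhip mean than CBFs1-like cells. The intervals of their Hhip shares overlapped. Cells above 0 averaged 3.14 Hhip counts in CBFs2-like and 1.92 in CBFs1-like cells. Of 7 genes read, 1 (Hhip, log2 ratio 1.06) was at least 2-fold higher and 1 (Ptch1, -1.02) at least 2-fold lower, against 6.10% and 4.49% of all genes. Gli3 followed with 0.78 and Gli1 with 0.48, while Smo had -0.48. In the reporter library, where the other CBFs-like cells were not split by the CBFs1 markers, CBFs2-like cells again had less Ptch1 than they did, with means of 0.124 and 0.372 (9.50% and 27.8% of cells) and a log2 ratio of -1.51. Ptch1 was the only 1 of 6 genes past 2-fold, against 5.61% of all genes lower, 3.33% higher and 8.93% in either direction. Gli3 had 0.49 and Hhip 0.80, but Gli1 had -0.37, the opposite sign to the wild-type library.

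Ptch1 also varied among the other reporter fibroblasts. The unnamed fibroblast cluster, led by Ptprr and Nrg1 (230 cells), which holds the 114 cells named CTFs-like at the resolution of 0.8, had the highest share of the 8 reporter clusters (50.4%, 43.8 to 57.1, mean 0.691), with Hhip in 1 of its cells. Its median of 1845 genes was above the 1447 of the CTFs-like cluster. Of the 3 other CBFs-like clusters, the one led by C1qtnf3 and Wnt2 had 32.6% (29.7 to 35.6), the one led by Sbno2 and Tnfaip3 25.5% (22.9 to 28.1), and the one led by Spock3 and Cxcl5 24.0% (20.4 to 27.8), although this last had the most genes per cell of the 3 (median 1874).

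Smooth muscle-like cells were also compared with all wild-type CTFs-like and CBFs-like cells. Of 7 genes read, 1 (Hhip) was at least 2-fold higher and none lower, against 5.40% and 10.2% of all genes. Hhip was 69.5-fold higher by means (18.4 and 0.266, log2 ratio 6.07). Ptch1 had a log2 ratio of 0.74 and Gli1 of 0.54, with Gli2 at 0.03, Smo at -0.25 and Gli3 at -0.36. In pericyte-like cells 3 of 7 were at least 2-fold lower than in the fibroblasts, where 23.3% of all genes were, and none higher, where 8.59% were. These were Ptch1 (-1.96), Smo (-1.12) and Gli2, which had 1 count in 118 cells, while Gli1 had 0.16.

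In the wild-type library the share of cells with Gli1 was higher among cells with Ptch1 than among those without. Gli1 was in 123 of 662 CTFs-like cells with Ptch1 (18.6%, 15.7 to 21.8) and in 7 of 156 without (4.49%, 1.82 to 9.03). In smooth muscle-like cells these shares were 29.9% (26.6 to 33.2) and 11.9% (7.54 to 17.7), and in CBFs1-like cells 20.9% (17.9 to 24.1) and 12.8% (9.89 to 16.2). The intervals were separate in all 3 classes, and overlapped in CBFs2-like cells (27.1% and 19.0%). Hhip was in 16.0% (13.3 to 19.0) of CBFs1-like cells with Ptch1 and 9.54% (7.02 to 12.6) of those without. In smooth muscle-like cells these shares were 97.0% (95.5 to 98.1) and 85.2% (79.1 to 90.1), also with separate intervals. The Hhip intervals overlapped in CTFs-like cells, at 7.25% (5.39 to 9.5) and 1.92% (0.398 to 5.52). They also overlapped in CBFs2-like cells, at 23.2% (17.6 to 29.5) and 14.0% (10.6 to 18.0). For Gli3 the shares with and without Ptch1 were 16.7% (14.0 to 19.7) and 18.9% (15.4 to 22.7) in CBFs1-like, 33.3% (27.0 to 40.2) and 25.8% (21.3 to 30.6) in CBFs2-like, 15.6% and 10.3% in CTFs-like and 16.2% and 12.5% in smooth muscle-like cells. For Gli2 they were 15.2% and 14.1%, 19.3% and 12.6%, 10.6% and 9.62%, and 14.2% and 9.66% in the same order. The intervals of both genes overlapped in all 4 classes. Depth moved with these shares, at medians of 2538 and 2031 genes for CTFs-like cells with and without Ptch1, 2694 and 2093 for smooth muscle-like cells and 2755 and 2600 for CBFs1-like cells, and its part was not tested. In the shallower reporter library the shares overlapped, with Gli1 in 8.06% (4.58 to 13) of CTFs-like cells with Ptch1 and 6.80% (4.36 to 10.0) without.

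Of smooth muscle-like cells, 97.6% (96.4 to 98.4) held at least 1 of the 6 receiving genes, against 88.8% of CTFs-like (86.4 to 90.8), 85.9% of CBFs1-like (83.8 to 87.9) and 78.0% of CBFs2-like cells (74.4 to 81.4). The share was 52.5% in pericyte-like, 42.3% in glia-like and 17.5% in blood endothelial-like cells. In the epithelium it ran from 6.75% of enterocyte-like (median 2940 genes) to 44.2% of enteroendocrine-like cells (median 3719 genes). The highest share, in smooth muscle-like cells, rests largely on Hhip, which alone was in 94.8% of them.

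Of 30 other Hedgehog pathway genes, 29 were in the wild-type table and 20 reached a class mean of 0.2, which was 2 of 6 genes for ligand release, 3 co-receptors, 11 of 14 cilium and transduction genes and all 4 gut mesenchyme targets. Disp2, a relative of the ligand-release transporter Disp1, averaged 1.07 in enteroendocrine-like cells (65.1% of 86 cells, 54.1 to 75.1) and 0.018 in enterocyte-like cells. Dhh, the remaining mammalian Hedgehog ligand, did not reach 0.2 and was highest in glia-like cells (13 of 78, 16.7%, 9.18 to 26.8). Gas1, a co-receptor that helps Patched bind ligand, averaged 4.97 in smooth muscle-like cells, 2.39 in CBFs2-like cells, 0.0466 in CBFs1-like cells and 0.00978 in CTFs-like cells. Boc, another co-receptor, was highest in transit-amplifying-like cells (0.592), and Cdon in enteroendocrine-like cells (0.279).

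Between CTFs-like and CBFs-like wild-type cells, 27 of these genes were read, 4 of which were at least 2-fold higher in CTFs-like cells and 5 lower, where 5.03% and 8.28% of all genes were. The median log2 ratio was -0.11, against -0.07 over all genes. Those higher were Foxf1 (3.51 and 1.41), Foxf2 (1.11 and 0.361), Foxl1 (0.623 and 0.0423) and Scube3 (0.0575 and 0.00176). The Fox genes encode transcription factors that act downstream of Hedgehog in gut mesenchyme. Their higher means were not particular to CTFs-like cells. Over the named classes Foxf1 was highest in pericyte-like cells (3.89) and Foxf2 in smooth muscle-like cells (1.18). Foxl1 had the same mean in smooth muscle-like as in CTFs-like cells. Among the genes lower in CTFs-like cells were Gas1 (0.00978 and 0.822), Evc (0.0844 and 0.219), Gpr161 (0.0355 and 0.0888) and Cdon. Cdon was held by 1 CTFs-like and 42 CBFs-like cells. Foxl1 averaged 0.693 in the 662 CTFs-like cells with Ptch1 and 0.327 in the 156 without. The cells without Ptch1 had fewer genes (median 2031 against 2538) and also less Pdgfra (6.78 against 9.02). The part of the number of genes in the Foxl1 difference was not tested. Of 24 read in the reporter library, 3 were higher (Foxl1, Foxf2 and Kif3a) and 3 lower, Gas1 and Scube1 among them, where 4.51% and 6.42% of all genes were. Foxf2, Foxl1 and Gas1 thus passed 2-fold in the same direction in both libraries.

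The genes most like each member were found over 12 wild-type classes of at least 50 cells and 10876 genes, by Pearson's r of log2 class means, values that share 1 library and whose classes differ in depth. For Ihh they were Tmem184a (0.982), Pcbd1 (0.981) and 5330417C22Rik (0.981). For Ptch1 they were Podn (0.943), Ryk (0.942) and Tfpi (0.940), and for Smo Cbx5 (0.928), Ado (0.915) and Tmem107 (0.913). For Gli1 they were Aspn (0.983), Pcdh18 (0.966) and Lhfp (0.965), and for Gli3 Reck (0.978), Axl (0.967) and Dse (0.965). For Hhip they were Svopl (0.907), Pdgfc (0.894) and Pde6h (0.893). Among the members, Gli1 and Gli3 were the most alike (0.944), Ptch1 had 0.803 with Smo and 0.798 with Gli1, and Hhip had at most 0.585, with Gli1. Ihh was opposed to all 5, from -0.374 with Smo to -0.817 with Gli1.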

How the data were processed

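Single-cell RNA-seq libraries of mouse colon were made with 10x kits, V3 for the wild-type and V2 for the reporter library. The submitters' processing notes name Cell Ranger, Seurat 3.1 and R 3.6.2. The deposited score values are whole-number UMI counts that the authors corrected with SCTransform to a common depth. A deposited natural log table gives ln(1 + corrected count) for each of those cells. Raw UMI counts were not used here, so a count model could not be run and the depth sequenced is unknown. No column was left unmapped (0 columns).

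Cells were clustered in Seurat 5.3.0 under R 4.3.3 from 3000 variable features less the 8 members and the pathway list (2991 left for wild-type and 2992 for reporter cells), with 30 principal components and resolutions of 0.45 and 0.3. Clusters were named "X-like" from marker lists, with at least 3 markers above 2-fold in at least 10% of cells. This scoring was settled after the clusters were seen, and a difference from the study may come from rebuilt names. The members and lists were chosen with earlier results of these data known.

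A class is described by its mean corrected count and its share of cells above 0 with a 95% exact interval, or the limit of 3 counts where none was seen. Ratios are on the log2(mean + 0.01) scale, which understates differences of low genes, and a gene was read where both classes held 20 corrected counts in all. No test was made, since each condition is 1 library and cells are not replicates. All members are named, and pathway genes are named from a highest class mean of 0.2, with Dhh and Scube3 named outside that rule after their values were seen. The values of a gene of the pathway list are not reported here, although it stays in the counts. Likeness was read for members and genes with a highest class mean of 0.2, which left out Shh and Gli2. The ratio step was tested on simulated Poisson counts in which 200 genes were changed 4-fold. In CTFs-like over CBFs-like cells of each library 100.0% of these were called. So were 0.0389% of the unchanged genes in wild-type cells (13045 genes read) and 0.133% in reporter cells (12227 genes read). The changed genes were drawn only from genes with higher means than the Gli genes and Hhip had in reporter fibroblasts. The recovery therefore does not cover such sparse genes. Python 3.11.15, numpy 2.4.6, scipy 1.17.1, scanpy 1.11.5 and matplotlib 3.10.9 were used. Gene positions are from GENCODE M21 (GRCm38). Alternatives were another resolution, fewer principal components, all variable features, removal of called doublets or of cells rich in mitochondrial counts, thinning, scaling, a cut of 2 counts and no filter on low genes.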

Additional observations from a re-analysis of the deposited data

How the results depend on the processing

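Of 153 log2 ratios of the members recomputed under 8 settings, 148 moved by less than their counting error, 5 moved by more and 0 were labelled reversed. That error is the half-width for a ratio of shares of cells above 0, not of means. It was 0.08 for Ptch1 in CTFs-like over CBFs-like cells. For Hhip in enteroendocrine-like over enterocyte-like cells it was 1.97, so for sparse genes a small movement says little. The count of 0 is not read as stability of sign for ratios within 2-fold. With cells at or above 10% mitochondrial counts left out, the log2 ratio of Ihh in goblet-like over enterocyte-like cells was 1.41, that of Ptch1 in CTFs-like over CBFs-like cells 1.73 and that of Ptch1 in smooth muscle-like cells over fibroblasts 0.92. The last was 0.67 with each cell thinned, and 0.80 without the smooth muscle-like cluster with fewer genes, an alternative chosen after seeing the data. With corrected counts per 10000 and the same pseudocount, 941 genes were at least 2-fold higher and 1530 lower in reporter CTFs-like cells, against 556 and 791, as the pseudocount is then smaller beside the values. Smooth muscle-like cells had the highest share with Ptch1 in 5 of 8 settings and CTFs-like cells in 3, so these classes are not ordered. The cause of the other movements was not tested. Thinning and the cut at 2 counts lowered the shares of cells above 0 by construction. No paired analysis was possible because each condition is 1 library with no replicate number. Shh was sparse, seen in at most 5.33% of the cells of a class of the main clustering. The part of depth in this was not tested.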

Other observations

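The wild-type clusters at a resolution of 0.8 also parted CBFs1-like cells. The cluster led by Adamtsl2 and Kcnk2 (323 cells) had Ptch1 in 68.1% of cells (62.7 to 73.2), and the one led by Sfrp2 and Stmn2 (813 cells) in 56.0% (52.5 to 59.4), although the first had fewer genes per cell (median 2498 against 2765). In the reporter library the cluster at that resolution led by Adamdec1 and Tnc, with Kcnk2 among its leading genes (660 cells), had Ptch1 in 44.4% (40.6 to 48.3), and the one led by Sfrp2 and Ctgf (676 cells) in 27.1% (23.8 to 30.6), and here the first had more genes per cell (median 1448 against 1363).

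Smooth muscle-like cells with Ptch1 held Foxl1 in 45.8% and Gas1 in 81.2% of 767 cells, against 18.8% and 56.2% of the 176 cells without, which had fewer genes (median 2093 against 2694). In the Reg4-high goblet-like cluster Ptch1 was in 9.06% of 309 cells (6.11 to 12.8), and in the Muc2-high cluster in 5.47% of 329 cells (3.27 to 8.51), with overlapping intervals.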
